A study of Homo sapiens with 29 samples.

Results

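Inflammatory cytokines and chemokines are represented here by 8 genes, chosen by name: CXCL10, CXCL11, CCL5, CCL2, CXCL8, IL6, CXCL1 and CXCL12. No cut on measured values was applied, but earlier results of these data were known when the genes were chosen. All 8 were found, with 14 probes between them, among the 22439 genes that the arrays' RefSeq accessions named. Each is described by its probe with the highest mean signal, and other probes are given where they disagreed. The study asked how knockdown of ZNF148, a zinc finger transcription factor, changed expression in LHCN-M2 cells, a human skeletal myoblast line from a selected clone that was immortalised with telomerase and CDK4. Cells received 20 nM siControl, a nontargeting siRNA, or 20 nM siZNF148. They were collected at 24 h in growth media (subconfluent), or at 48 or 96 h in growth media (confluent) or differentiation media (DIFF in the labels). The paper gives confluence for growth media only. The labels count hours from transfection, and the methods can also be read as hours in each medium after a later media change. Between 24 h and later, time and confluence cannot be told apart. The 10 groups had 3 biological replicates each, except siControl at 96 h in growth media with 2, for 29 arrays in all. As described for the study's siRNA screen, growth media held serum, dexamethasone, hepatocyte growth factor and basic FGF, and differentiation media held insulin and apo-transferrin and none of these.

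Chemokines are secreted proteins that direct the movement of leukocytes and other cells through G protein-coupled receptors. CXCL10, CXCL11 and CCL5 are called interferon-linked here, since interferon regulatory factors switch them on, often together with NF-kB, when cells sense viral nucleic acid or interferon. CXCL1, CXCL8, CCL2 and IL6 are called NF-kB-linked, since interleukin 1 and TNF induce them mainly through NF-kB, which glucocorticoids restrain. CXCL12 is a homeostatic chemokine that guides CXCR4-bearing cells, muscle progenitors among them.

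The bases upstream of the transcription start are shown for CXCL10 and CXCL11 of the interferon-linked genes, for CXCL1 and IL6 of the NF-kB-linked genes and for CXCL12, because the genes are grouped by the factors known to act on their promoters. All are RefSeq sequence of build GRCh38.p14, 5′ to 3′ on the gene's own strand, 250 bases that end at the base before the start. Capitals mark matches on either strand to an interferon-stimulated response element (GAAA, any 2 bases, GAAA), to the NF-kB consensus of 10 bases, or to the TATA box TATAAA.
CXCL10, chr4:76023498-76023747, minus strand: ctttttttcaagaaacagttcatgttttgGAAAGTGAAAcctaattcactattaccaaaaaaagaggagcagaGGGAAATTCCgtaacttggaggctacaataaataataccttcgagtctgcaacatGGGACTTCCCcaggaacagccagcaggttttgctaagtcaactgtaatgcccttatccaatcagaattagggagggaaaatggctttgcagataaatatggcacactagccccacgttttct
CXCL11, chr4:76036071-76036320, minus strand: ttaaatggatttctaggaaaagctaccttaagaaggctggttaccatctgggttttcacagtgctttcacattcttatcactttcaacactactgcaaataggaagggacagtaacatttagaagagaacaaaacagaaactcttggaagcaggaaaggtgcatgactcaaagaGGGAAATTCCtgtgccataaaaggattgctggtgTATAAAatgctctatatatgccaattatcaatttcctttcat
CXCL1, chr4:73869143-73869392, plus strand: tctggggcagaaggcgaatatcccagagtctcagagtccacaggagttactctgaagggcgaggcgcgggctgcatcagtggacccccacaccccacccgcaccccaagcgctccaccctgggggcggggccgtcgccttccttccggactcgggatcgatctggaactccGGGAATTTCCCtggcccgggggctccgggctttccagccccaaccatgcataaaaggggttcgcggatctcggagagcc
IL6, chr7:22726950-22727199, plus strand: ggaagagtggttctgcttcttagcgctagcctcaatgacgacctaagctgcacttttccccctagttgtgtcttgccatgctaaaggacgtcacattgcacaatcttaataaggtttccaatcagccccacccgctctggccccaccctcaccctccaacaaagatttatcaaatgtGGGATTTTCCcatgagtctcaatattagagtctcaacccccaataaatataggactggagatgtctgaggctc
CXCL12, chr10:44385098-44385347, minus strand: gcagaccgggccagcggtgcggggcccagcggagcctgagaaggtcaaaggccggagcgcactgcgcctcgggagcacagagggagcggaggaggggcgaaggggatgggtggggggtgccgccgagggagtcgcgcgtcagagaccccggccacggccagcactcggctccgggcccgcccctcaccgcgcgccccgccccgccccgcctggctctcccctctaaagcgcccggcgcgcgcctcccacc

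CXCL10 held the response element 221 to 212 bases before its start and NF-kB matches at 177 to 168 and at 122 to 113. CXCL11 held an NF-kB match at 76 to 67 bases and the TATA box at 42 to 37, and, at 240 to 232 bases and left in lower case above, a gamma-interferon activation site (TTC, any 3 bases, GAA, which reads alike on both strands). CXCL1 held overlapping NF-kB matches on both strands within 79 to 69 bases of its start, and IL6 held a single match at 73 to 64. The CXCL12 window held none of these letters and was GC-rich, with 78% of its bases G or C against a median of 58% over 35116 promoters. Among these 35116 windows of equal length, 3.02% held the response element, 5.21% the NF-kB consensus, 10.7% the TATA box and 6.57% the activation site. The CXCL8 window held a match only to the TATA box, at 31 to 26 bases. A match describes letters and is not a measured binding site. A site that departs from these letters by a base is not found, so a missing match does not show that a site is absent.

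ZNF148 itself was lower with siZNF148 in all 5 comparisons, with log2 fold changes of -2.74 to -1.52 and limma adjusted p of at most 4.53e-08. All fits used limma on quantile normalised log2 signals of the 29 arrays, and p-values were adjusted over 38839 probes by the Benjamini-Hochberg method. A gene is called changed where its adjusted p was under 0.05 and its change over 2-fold. A probe that was not well above local background on any array of a group has only a bound there, and folds against it are given as at least that size. On each array 41.6 to 56.5% of probes were well above background. The myoblast genes MYOD1, MYF5, DES, NCAM1, CDH15 and CHRNA1 were well above background on all 29 arrays. In siControl cells at 48 h in growth media, replicate 1 stood apart (correlation down to 0.959 within its group), and without it the number of the 8 genes called was the same in each comparison of siZNF148 with siControl.

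CCL5, an attractant of T cells and monocytes, and CXCL10, which attracts CXCR3-bearing T cells, rose with siZNF148 at 96 h in growth media, where no NF-kB-linked gene was called. There 2 of the 8 genes were called, against 20.8% of all probes. In differentiation media at 96 h all 3 interferon-linked genes and IL6 were called higher, and CCL2, CXCL1 and CXCL12 lower. That made 7 of 8 genes, against 20.6% of all probes. The groups did not overlap for 3 of 8 genes at 24 h, 5 at 48 h and 6 at 96 h in growth media, and for 5 at 48 h and 7 at 96 h in differentiation media. Over all probes the shares without overlap were 43.7%, 51.3%, 65.5%, 59.4% and 55% in that order. These are bulk RNA levels, so fewer cells expressing a gene and less RNA per cell cannot be told apart.

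CCL5 gave log2 signals of 10.17, 9.80 and 9.83 with siZNF148 at 96 h in growth media, against 2.04 and 3.70 with siControl. Neither siControl array was well above background, and the groups lay far apart. The difference was at least 55.3-fold (fitted log2 fold change 7.07, SE 0.796, limma adjusted p = 2.14e-07). With normexp background correction the call held at a log2 fold change of 3.94, under that bound of 5.79 on the log2 scale, and without single siControl arrays it was 6.24 (replicate 1) or 7.90 (replicate 2). In differentiation media at 96 h the siZNF148 arrays gave 9.48, 9.48 and 9.10 and the siControl arrays 1.97, 5.25 and 4.77, of which the first was not well above background. Here too the groups did not overlap, with a log2 fold change of 5.35 (SE 0.712, limma adjusted p = 1.77e-06). It was 4.34 without siControl replicate 1, the array at 1.97, 5.98 without replicate 2, and 3.07 with normexp background correction, called each time.

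CCL5 at 48 h in growth media gave 5.79, 5.97 and 6.24 with siZNF148 and 4.70, 1.99 and 5.17 with siControl. The call (log2 fold change 2.05, limma adjusted p = 0.0225) rested on the siControl array at 1.99, replicate 2, since without it the value was 1.07 (adjusted p = 0.216). It was also lost without siZNF148 replicate 3 (adjusted p = 0.0635) and with normexp background correction, which gave 0.72. In differentiation media at 48 h the siZNF148 arrays gave 5.91, 6.32 and 6.04, and the siControl arrays 3.52 to 3.85, none of them well above background. The groups did not overlap, and the difference was at least 4.36-fold (limma adjusted p = 0.00719), although normexp background correction gave a log2 fold change of only 0.81. At 24 h the groups overlapped, at 3.89 to 5.13 with siZNF148 and 3.37 to 4.39 with siControl (log2 fold change 0.86, limma adjusted p = 0.471). The 5 highest of the 10 group means of CCL5 were those of the siZNF148 groups. The 5 siControl groups followed, each overlapping the next in range.

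CXCL10 was not well above background on any siControl array. With siZNF148 at 96 h in growth media it gave 7.26, 7.45 and 7.17, against 2.47 and 2.59 with siControl. The groups lay far apart, and CXCL10 was at least 9.07-fold higher (fitted log2 fold change 4.76, SE 0.395, limma adjusted p = 2.55e-09). With normexp background correction it stayed called at a log2 fold change of 1.55, under that bound of 3.18 on the log2 scale. In differentiation media at 96 h it gave 5.48, 4.88 and 4.98 with siZNF148, of which only the first was well above background, and 2.63 to 2.65 with siControl. It was at least 2.00-fold higher there (limma adjusted p = 4.6e-06), without overlap, and normexp background correction gave a log2 fold change of 0.51, under the 2-fold threshold. A second CXCL10 probe was well above background on all 3 of these siZNF148 arrays and was at least 3.15-fold higher (adjusted p = 0.00302). On that probe the difference at 96 h in growth media was at least 10.4-fold (adjusted p = 2.07e-05). At 24 and 48 h in growth media no CXCL10 value was well above background on the first probe, and no difference was called. The probes disagreed at 48 h in differentiation media, where siZNF148 replicate 2 gave 2.83 on the first and 7.24 on the second, and the other arrays 4.42 and 4.08 on the first and 1.95 and 2.29 on the second. Neither probe was called in that comparison (limma adjusted p = 0.389 and 0.0531). Averaged, they gave a call (1.12, adjusted p = 0.00412).

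CXCL11, another CXCR3 ligand, was not well above background on 13 of 14 siControl arrays. The exception was replicate 2 at 96 h in growth media, at 7.17, where replicate 1 gave 2.10 and the siZNF148 arrays 5.94, 6.29 and 5.68. The groups therefore overlapped, and the log2 fold change of 1.34 was not called (limma adjusted p = 0.235). Without replicate 2 it was 3.87 (adjusted p = 1.88e-05) and without replicate 1 it was -1.20. In differentiation media at 48 h the siZNF148 arrays gave 7.45, 4.72 and 5.25, and the siControl arrays 1.98 to 2.08. All siZNF148 arrays were higher, by at least 3.6-fold (limma adjusted p = 0.000207). The fitted log2 fold change of 3.79 was 2.96 without siZNF148 replicate 1 and 1.05 with normexp background correction, the latter under the bound of 1.85 on the log2 scale, and was called in both. CXCL11 was also called at 48 h in growth media (fitted log2 fold change 1.99, limma adjusted p = 0.0383) and at 96 h in differentiation media (2.15, 0.0241). In each of these only 1 of 3 siZNF148 arrays was well above background, with lower bounds of 1.03-fold for the first and 1.09-fold for the second. Neither call was firm: leaving out single arrays raised the adjusted p to 0.0959 and 0.0594, and with normexp background correction they were lost at log2 fold changes of 0.39 and 0.48.

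**Figure D1:**
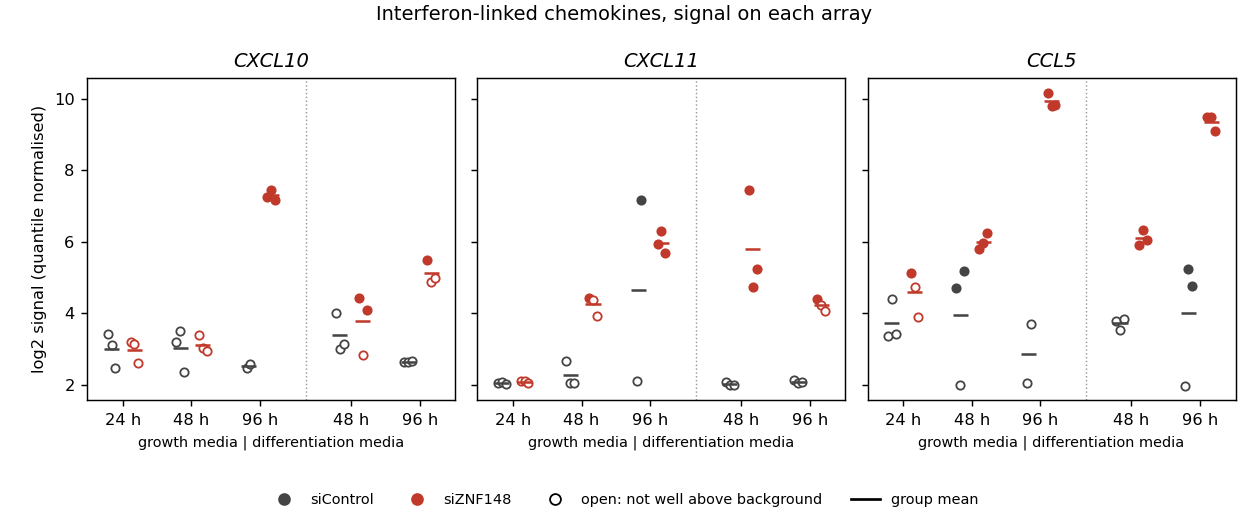
Each point is the log2 signal on 1 array (y axis) for CXCL10, CXCL11 and CCL5 in the 10 groups (x axis: hours after transfection, growth media left and differentiation media right of the dotted line), with bars at group means and open points not well above background. At 96 h the siZNF148 arrays lie above all siControl arrays of the same medium for CXCL10 and CCL5, and a single siControl array at 7.17 breaks that pattern for CXCL11. Levels of different genes come from different probes and cannot be compared.

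The siZNF148 effect grew between 48 and 96 h in growth media for CCL5 and CXCL10. The effects differed by 5.02 log2 units for CCL5 (SE 1.07, limma adjusted p = 0.00316) and by 4.65 for CXCL10 (SE 0.53, adjusted p = 3.61e-06). Over other processing settings and refits without single arrays these differences ranged over 3.21 to 6.00 and 1.48 to 5.06, and stayed called. Over this interval the effects on CXCL1 and IL6 also differed, by 2.12 (adjusted p = 0.0171) and 1.53 (adjusted p = 0.00196), from below 0 at 48 h to above 0 at 96 h. The call on CXCL1 was lost without either siControl array at 96 h (replicate 1 or 2, adjusted p up to 0.0578), and that on IL6 with its probes averaged (-0.01). The value for CCL5 was 4.19 without siControl replicate 1 and 5.85 without replicate 2 at 96 h, and 6.00 and 4.41 without siControl replicates 2 and 3 at 48 h. In all, 4 of 8 genes were called for this interval, against 3.9% of all probes. From 24 to 96 h the effects on CCL5 and CXCL10 differed by 6.21 and 4.79, 2 genes against 18.9% of probes. In growth media CXCL10 was not well above background on any siControl array or at 24 or 48 h. Its differences of effects are therefore fitted values and not measured sizes. From 24 to 48 h only the effect on IL6 was called different, 1 gene against 17%. The 24 h arrays were all on another slide and in another scan than the rest, so time, slide and scan cannot be told apart there.

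CXCL1, CCL2 and IL6, the NF-kB-linked genes measured on every array, did not move in 1 direction with siZNF148. CXCL1 was lower at 48 h in both media, CCL2 fell at 96 h in differentiation media, and IL6 rose in differentiation media at both times. At 24 h 1 of the 8 genes, IL6, was called, against 4.77% of all probes. The counts at 48 h were 3 of 8 against 20.1% in growth media and 5 of 8 against 28% in differentiation media.

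CXCL1, a neutrophil attractant that acts on CXCR2, gave 8.86, 8.65 and 8.35 with siZNF148 at 48 h in growth media and 10.05, 10.22 and 10.80 with siControl. The groups did not overlap, and the log2 fold change was -1.74 (SE 0.378, limma adjusted p = 0.000572). The order was turned at 96 h in growth media without a call, with 10.62, 10.88 and 10.62 against 10.36 and 10.28 (log2 fold change 0.38, limma adjusted p = 0.537). The 48 h arrays in differentiation media gave 4.66, 5.25 and 5.02 with siZNF148 and 8.86, 8.26 and 6.37 with siControl. All siZNF148 arrays lay lower, although siControl replicate 3 stood below its own group (log2 fold change -2.85, SE 0.378, limma adjusted p = 1.11e-06; -3.58 without that array). The 96 h arrays in differentiation media gave 7.59, 7.12 and 7.07 against 8.31, 8.37 and 8.27. That log2 fold change of -1.06 (limma adjusted p = 0.0246) lay at the threshold and was lost without single arrays, at values of -0.97 to -1.06, and with normexp background correction, at -0.81. A second CXCL1 probe was called at 48 h in growth media (-1.59, adjusted p = 1.6e-06) but in neither differentiation comparison, where its log2 fold changes were -0.91 and -0.79.

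CCL2, which attracts monocytes through CCR2, gave 7.89, 7.66 and 7.78 with siZNF148 at 96 h in differentiation media and 10.10, 10.30 and 10.25 with siControl. The groups were well separated, with a log2 fold change of -2.44 (SE 0.341, limma adjusted p = 3.49e-06). At 48 h in differentiation media the siControl arrays gave 8.61, 7.77 and 6.12, and the last, replicate 3, fell below the siZNF148 arrays at 6.57, 6.44 and 6.64. The change stayed under 2-fold (log2 fold change -0.95, limma adjusted p = 0.0232), and without that array it was -1.64 (adjusted p = 7.04e-08). In growth media CCL2 was not called at 24 h (-0.12), 48 h (-0.81, adjusted p = 0.0579) or 96 h (-0.53, adjusted p = 0.299). The effects in differentiation and growth media differed by -1.90 log2 units at 96 h (SE 0.511, limma adjusted p = 0.0086).

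IL6, a cytokine that muscle also releases, gave 6.74, 7.02 and 6.96 with siZNF148 at 48 h in differentiation media and 4.79, 4.62 and 4.04 with siControl. The groups lay well apart, with a log2 fold change of 2.42 (SE 0.205, limma adjusted p = 1.31e-09). At 96 h in that medium it gave 6.55, 6.27 and 6.96 against 5.06, 5.57 and 4.68 (log2 fold change 1.49, limma adjusted p = 2.87e-06). With normexp background correction both stayed past the adjusted p but not past 2-fold, at 1.00 and 0.71. In growth media the direction changed with time. IL6 was higher at 24 h, at 8.06, 8.07 and 8.02 against 7.11, 6.99 and 7.03, a log2 fold change of 1.00 (limma adjusted p = 0.000865) that lay at the threshold and passed it in 3 of 7 refits without a single array. At 48 h in growth media it was lower by less than 2-fold (-0.78, adjusted p = 0.00327) and at 96 h higher by less than 2-fold (0.75, adjusted p = 0.0103). A second probe, for a predicted IL6 transcript, was well above background on 7 arrays of 6 groups and was called in none of these 5 comparisons. Averaged with it, IL6 was called in none of them either.

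**Figure D2:**
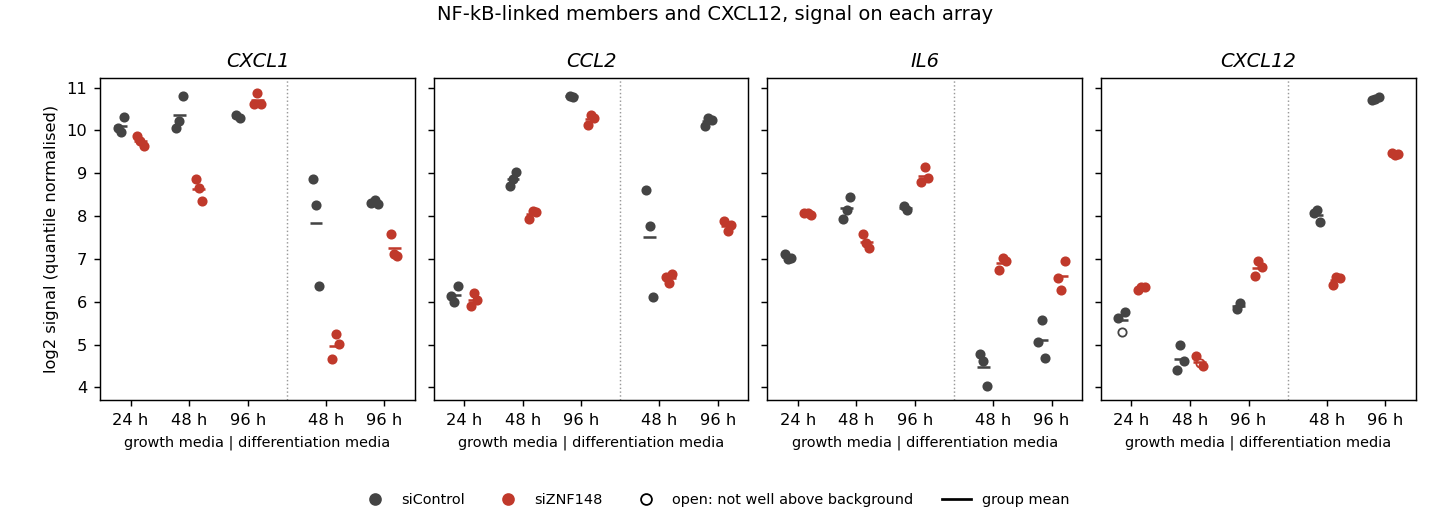
Each point is the log2 signal on 1 array (y axis) for CXCL1, CCL2, IL6 and CXCL12 in the 10 groups (x axis: hours after transfection, growth media left and differentiation media right of the dotted line), with bars at group means and open points not well above background. IL6 in siControl cells drops to 4.04 to 4.79 in differentiation media at 48 h while the siZNF148 arrays stay at 6.74 to 7.02, and CXCL12 is highest at 96 h in differentiation media.

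CXCL8, another neutrophil attractant, was well above background on 2 of 29 arrays, at 4.44 and 4.80, both from siZNF148 cells in growth media. No difference between siZNF148 and siControl was called for it (limma adjusted p = 0.511 to 1). Its level is known only as a bound in nearly every group, so no fold is given.

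On its brightest probe CXCL12 rose in differentiation media in both siRNA arms, by less with siZNF148. With siControl it gave 10.71, 10.73 and 10.78 at 96 h in differentiation media and 5.83 and 5.98 in growth media (log2 fold change 4.83, SE 0.145, limma adjusted p = 9.33e-16). With siZNF148 the arrays gave 9.48, 9.42 and 9.46 against 6.60, 6.96 and 6.81 (log2 fold change 2.66, limma adjusted p = 5.35e-12). Within differentiation media the siZNF148 arrays lay below the siControl arrays at 96 h (-1.29, adjusted p = 3.26e-08). At 48 h they gave 6.39, 6.58 and 6.55 against 8.08, 8.14 and 7.86 (-1.52, adjusted p = 1.37e-09). In growth media the siZNF148 arrays lay above by less than 2-fold at 24 h (0.76, adjusted p = 0.00014) and 96 h (0.88, adjusted p = 2.85e-05). The siZNF148 effects in the media differed by -2.17 at 96 h (SE 0.194, limma adjusted p = 5.75e-08) and -1.45 at 48 h (SE 0.183, limma adjusted p = 1.88e-06). A probe for another CXCL12 transcript, well above background on all 29 arrays, was not called, with a log2 fold change of 0.56 (adjusted p = 0.152) for the medium in siControl cells at 96 h. In siZNF148 cells its medium changes were -0.27 at 48 h and 0.46 at 96 h. Its changes with siZNF148 in differentiation media were -0.59 at 48 h and 0.00 at 96 h, so the probes disagreed. Averaged over all CXCL12 probes, the siZNF148 changes in differentiation media were -0.70 and -0.76, under the 2-fold threshold. So were the medium changes in siZNF148 cells, 0.14 (48 h, adjusted p = 0.718) and 0.83 (96 h, 0.00266), while those in siControl cells stayed called at 1.02 and 1.98.

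**Figure D3:**
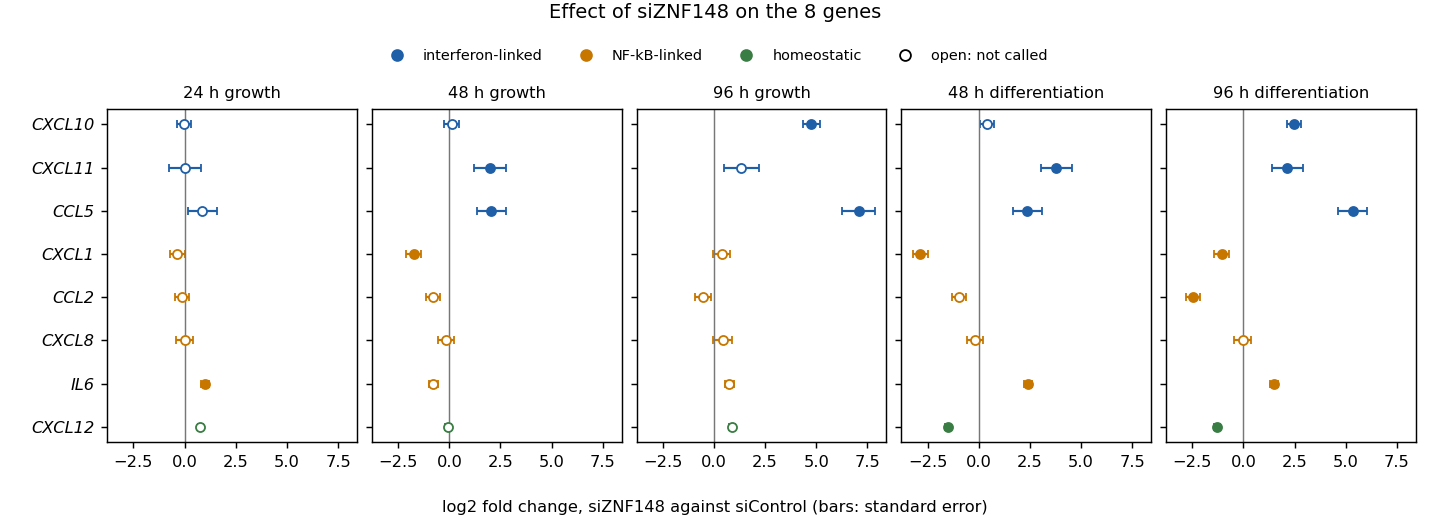
Points are log2 fold changes of siZNF148 against siControl with their standard errors for the 8 genes in the 5 comparisons, filled where called. Interferon-linked genes reach 4.76 (CXCL10) and 7.07 (CCL5) at 96 h in growth media, where no NF-kB-linked gene is called, and at 96 h in differentiation media CCL2 and CXCL1 lie below 0 and IL6 above it.

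In siControl cells IL6 and CXCL1 were lower in differentiation than in growth media. IL6 gave 4.79, 4.62 and 4.04 against 7.94, 8.15 and 8.44 at 48 h (log2 fold change -3.69, SE 0.205, limma adjusted p = 4.31e-12), and its log2 fold change at 96 h was -3.09 (limma adjusted p = 9.16e-10). With the IL6 probes averaged the 96 h call was lost (-0.50, adjusted p = 0.785) and the 48 h call was not (-2.67). For CXCL1 the log2 fold changes were -2.53 at 48 h and -2.01 at 96 h (limma adjusted p = 1.04e-05 and 0.000705). The 48 h value was -1.80 without siControl replicate 3 in differentiation media. CCL2 was called at 48 h (-1.36, adjusted p = 0.0026), which rested on siControl replicate 3 in differentiation media, since without it the change was -0.67. It was not called at 96 h (-0.58, adjusted p = 0.278). In all, 4 of 8 genes were called at 48 h against 13.4% of probes, and 5 of 8 at 96 h against 13%. The count at 96 h included CXCL8, not well above background in either group, and CXCL11, whose call rested on the siControl array at 7.17 (log2 fold change -0.01 without it).

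In siZNF148 cells the medium left IL6 within 2-fold at 48 h (log2 fold change -0.49, limma adjusted p = 0.14). The siZNF148 effect on IL6 differed between the media by 3.20 log2 units at 48 h (SE 0.291, limma adjusted p = 1.85e-08), 1 of 2 genes with a difference of effects, against 14% of all probes. Averaged over probes the difference for IL6 was not called (1.78, adjusted p = 0.366). At 96 h the difference for IL6 was 0.74 (adjusted p = 0.0913), and 3 other genes were called, CXCL10, CCL2 and CXCL12, against 10.6%. In siZNF148 cells at 96 h IL6 fell by 2.35 (adjusted p = 3.33e-08) and CXCL1 by 3.45 (adjusted p = 7.11e-07) in differentiation media, and CCL2 by 2.49 (adjusted p = 1.27e-05). The IL6 change was -0.42 and not called with its probes averaged. CXCL10 was lower there as well (log2 fold change -2.18, adjusted p = 9.23e-05), while CCL5 was not called (-0.58, adjusted p = 0.651). The medium called 3 of 8 genes at 48 h and 6 of 8 at 96 h in siZNF148 cells, against 3.18% and 5.47% of all probes. The count at 96 h included CXCL8, well above background on 1 of 3 arrays in growth media and 0 of 3 in differentiation media.

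Between 48 and 96 h every call among the 8 genes was a rise. In siZNF148 cells 6 of 8 were called in growth media, against 5.04% of probes, and 5 of 8 in differentiation media, against 7.18%. The latter included CXCL10 (log2 fold change 1.33), well above background on 2 of 3 arrays at 48 h and 1 of 3 at 96 h. Its call held in 6 of 7 refits without a single array (limma adjusted p up to 0.0603). In siControl cells CCL2 and CXCL12 were called in both media, 2 of 8 genes against 0.35% of probes in growth media and 2 of 8 against 8.38% in differentiation media. CCL2 in siControl cells rose by 1.94 in growth media (limma adjusted p = 0.00885) and by 2.72 in differentiation media (adjusted p = 2.07e-06). The first was not called without replicate 1 at 96 h (adjusted p = 0.086), and the second was 2.03 without replicate 3 at 48 h. In siZNF148 cells in growth media CXCL10 rose at least 8.19-fold (adjusted p = 1.71e-08) and CCL5 by 3.94 log2 units (adjusted p = 0.00029). The CXCL10 log2 fold change was as low as 1.45 under other settings, less than that bound, and stayed called.

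Across the 10 group means CCL5 spanned the widest range, from 2.87 to 9.93 log2 units, and CXCL8 the narrowest, from 2.20 to 4.05. With groups ranked by mean, 1 of 9 pairs of neighbouring groups overlapped in range for CXCL12, 4 for CCL2, 5 for IL6 and 8 for CXCL11. For CXCL8 all 9 overlapped. IL6 was highest in siZNF148 cells at 96 h in growth media (8.94 ± 0.173, SD, n = 3) and lowest in siControl cells at 48 h in differentiation media (4.49 ± 0.394, SD, n = 3). The group means of CXCL10 and CCL5 had a Pearson correlation of 0.91, a description of 10 points that at the low end are background. That of CXCL1 and CCL5 was -0.18 and that of IL6 and CXCL12 -0.66. Of 18431 genes compared, those with group means most like CCL2 were ELOVL3 (r = 0.972), RNF175 and C5orf15. For IL6 they were PGM3 (r = 0.954), CNTF and NRF1. For CXCL1 they were COL8A1 (r = 0.965), PAPPA and LAMA1, and for CXCL12 SNORA14A (r = 0.951), TRIM77 and INKA2. Each is picked as the highest of 18431 correlations over 10 points, so a high value is no evidence of a link. The genes compared needed signal well above background on only 2 arrays.

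Around the interferon-linked chemokines, 26 of 28 interferon-stimulated effector genes tested were called higher and 0 lower with siZNF148 at 96 h in growth media, where 12.3% of all genes were called higher and 12.4% lower. Their median log2 fold change was 3.82, against -0.03 over all genes. MX1, an antiviral GTPase, rose by 7.40 (adjusted p = 8.92e-14), ISG15, a ubiquitin-like modifier, by 6.04 (adjusted p = 3.74e-14), and BST2, which tethers budding virus, by 8.05 (adjusted p = 5.81e-10), all in log2 units by limma. At 96 h in differentiation media 24 of 28 were called higher and 0 lower, with a median of 3.05, where 10.4% of all genes were higher and 12.8% lower. At 48 h 6 were higher and 2 lower in growth media, against 11.7% and 12.2% of all genes. With differentiation media at 48 h 4 were higher and 4 lower, against 15% and 17.2%. At 24 h 1 was higher and 4 were lower, against 2.43% and 3.03%. MX1, ISG15 and BST2 were among those already called higher at 48 h in growth media, by 1.48, 1.81 and 3.76 (limma adjusted p at most 0.00014). CXCL10 in growth media was well above background at 96 h and not at 24 or 48 h. CCL5 and CXCL11 were called at 48 h in growth media, though neither call was firm.

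Some genes that sense nucleic acid or carry the interferon signal were called at 96 h, again against 12.3% of all genes higher and 12.4% lower in growth media and 10.4% and 12.8% in differentiation media. Of 13 sensors tested, 7 were called higher and 0 lower in growth media, with a median of 1.17, and 3 higher and 1 lower in differentiation media, with a median of 0.40. In growth media IFIH1 and RIGI, cytosolic RNA sensors, rose by 3.90 (adjusted p = 3.1e-15) and 2.72 (adjusted p = 3.74e-14), and DHX58, their regulator, by 1.98 (adjusted p = 1.27e-11). At 24 h 0 sensors were higher and 2 lower, against 2.43% and 3.03% of all genes. At 48 h 1 was higher and 3 lower in growth media (11.7% and 12.2%), and 0 and 3 in differentiation media (15% and 17.2%). DHX58 was lower at 24 h (-1.54) and at 48 h in differentiation media (-2.20), while IFIH1 and RIGI were not called before 96 h. Of 18 interferon signalling genes, 5 were higher and 1 lower at 96 h in growth media, and 5 higher and 3 lower in differentiation media, so most were not called, and the medians were 0.00 and -0.10. In growth media IRF7 rose by 5.07 (adjusted p = 1.58e-14) and USP18, a brake on interferon receptor signalling, by 3.36 (adjusted p = 1.33e-07). Among 4 interferon ligands tested, IFNB1 was at least 2.34-fold higher at 96 h in growth media (limma adjusted p = 1.45e-05), with no siControl array well above background. IFNB1 and, below, CXCR4 were named after their values were seen.

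Of the NF-kB pathway at 96 h in growth media, where 12.3% of all genes were higher and 12.4% lower, 2 of 17 subunits and activators were higher and 4 lower, 0 of 11 feedback inhibitors higher and 3 lower, and 1 of 12 target genes higher and 3 lower. The medians were -0.49, -0.07 and -0.16, and whether the lists differ from all genes was not tested. TRAF6, an adaptor of the interleukin 1 receptor, rose by 1.38 (adjusted p = 2.67e-11), while IL1R1 and TNFRSF1A, receptors of interleukin 1 and TNF, fell by 1.79 (adjusted p = 3.24e-09) and 1.26 (adjusted p = 9.1e-08). NFKBIA, the inhibitor that NF-kB itself induces, fell by 1.26 (adjusted p = 3.41e-09), BCL3 by 1.36 (adjusted p = 3.32e-10) and BIRC3 by 1.08 (adjusted p = 0.0349). Of the target genes, complement C3 fell by 4.42 (adjusted p = 7.29e-13), the protease gene MMP3 by 2.77 (adjusted p = 1.7e-11) and SOD2 by 2.01 (adjusted p = 4.53e-10). In growth media at 48 h 1, 0 and 0 genes of the lists were higher and 4, 3 and 5 lower, against 11.7% and 12.2% of all genes. Of 9 mRNA decay factors, which set how long such transcripts last, none was called at 48 h in growth media or at 96 h in either medium. In differentiation media at 96 h 10.4% of all genes were higher and 12.8% lower. At 24 h 1 decay factor was higher and 0 lower, against 2.43% and 3.03%. In differentiation media at 48 h 0 were higher and 2 lower, against 15% and 17.2%.

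Of 15 other chemokines tested, 2 were called higher and 3 lower at 96 h in growth media, against 12.3% and 12.4% of all genes. CCL20 rose by 3.19 (adjusted p = 0.0152), and CXCL3 and CXCL6, which share CXCR2 with CXCL1, fell by 1.75 (adjusted p = 0.00193) and 1.17 (adjusted p = 0.0443). Of 15 other cytokines 4 were higher and 3 lower, against the same shares. IL32 rose by 3.74 (adjusted p = 4.76e-08) and IL11, an IL6 family cytokine, by 3.05 (adjusted p = 3.22e-08), and IL33 fell by 2.62 (adjusted p = 2.92e-11). Among 10 receptors of the 8 proteins 2 were higher and 3 lower, again against these shares. CCR1, a CCL5 receptor, fell by 1.92 (adjusted p = 7.03e-07) and IL6ST, the signalling chain of the IL6 receptor, by 1.42 (adjusted p = 3.25e-07). CXCR4, the CXCL12 receptor, was at least 33.3-fold higher (limma adjusted p = 8.03e-12).

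**Figure D4:**
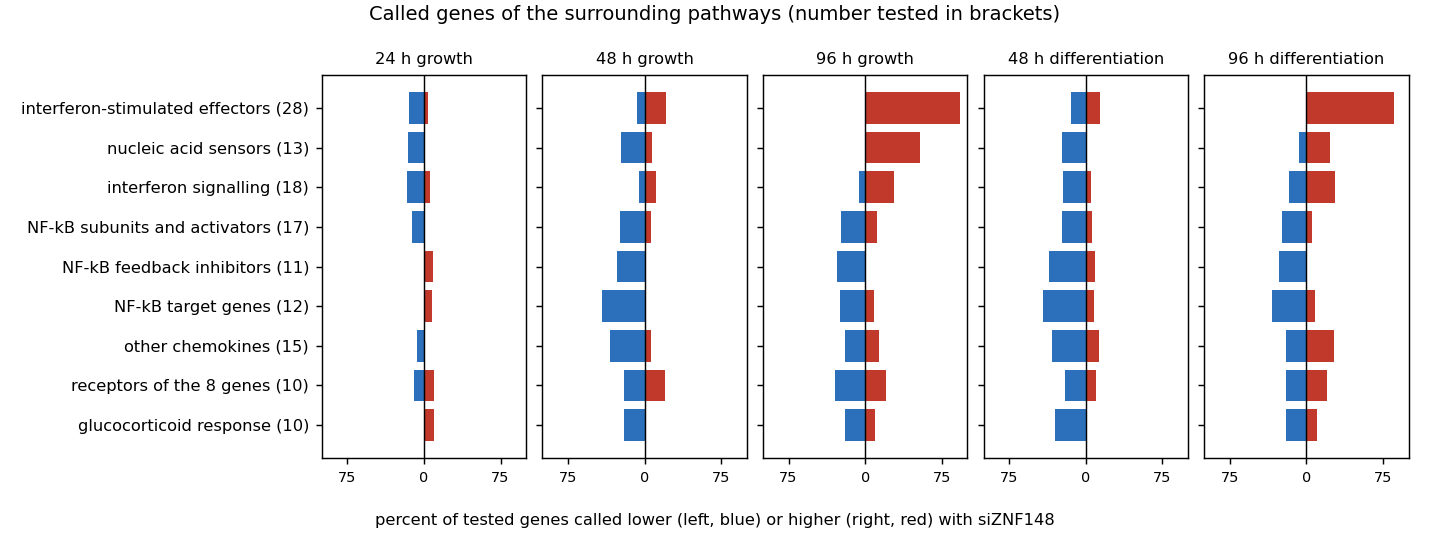
Bars give the percentage of tested genes of each list called lower (left of 0) or higher (right of 0) with siZNF148 in the 5 comparisons. Interferon-stimulated effectors reach 26 of 28 higher at 96 h in growth media and 24 of 28 in differentiation media, against 12.3% and 10.4% of all genes.

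Glucocorticoid-responsive genes were followed because the growth media held dexamethasone. In siControl cells 0 of 10 were called higher and 4 lower in differentiation media at 48 h, where 7.7% of all genes were higher and 8.18% lower. At 96 h 1 was higher and 6 were lower, against 6.79% and 8.27%. FKBP5, which binds the glucocorticoid receptor complex, fell by 1.07 at 48 h (limma adjusted p = 3.33e-07), the comparison in which IL6 and CXCL1 fell. With siZNF148 at 96 h in growth media FKBP5 fell by 1.52 (adjusted p = 1e-08), the receptor gene NR3C1 by 1.03 (adjusted p = 5.4e-08), and SGK1 rose by 1.52 (adjusted p = 1.74e-13). The part of dexamethasone in these differences was not tested.

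Markers of other cell types were examined because fibroblasts can secrete CCL2, IL6 and CXCL12, and leukocytes CCL5. Of 6 fibroblast markers 3 were called lower with siZNF148 at 96 h in growth media, 3 at 96 h and 4 at 48 h in differentiation media, and none higher in these comparisons, where 12.4%, 12.8% and 17.2% of all genes were lower. Their mean log2 signal at 96 h was 9.26 to 9.31 with siZNF148 and 10.74 to 10.82 with siControl in differentiation media, and 9.88 to 10.26 against 11.27 to 11.37 in growth media. All but TCF21 were well above background on 29 arrays. The part of these genes in the changes of CCL2, IL6 and CXCL12 was not tested. Of 6 leukocyte markers 2 were lower and 0 higher at 96 h in growth media, where CCL5 and CXCL10 rose, and their mean was 5.25 to 5.47 with siZNF148 against 6.15 to 6.39 with siControl. ITGAM and CD3E were well above background on 7 and 11 of 29 arrays. Of 5 endothelial markers 2 were lower and 0 higher there, and of 6 myoblast markers 1 was lower and 3 higher, each against 12.4% of all genes lower and 12.3% higher.

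Slides were compared where a slide held both siRNAs. At 96 h in growth media a single slide held both siControl arrays and 1 siZNF148 array, and on it CCL5 differed by 6.94 and CXCL10 by 4.91 log2 units. At 96 h in differentiation media, on the 2 slides with both, CCL5 differed by 5.49 and 4.71, CCL2 by -2.42 and -2.59, and IL6 by 1.65 and 1.59. At 48 h in differentiation media IL6 differed by 2.70, 2.22 and 2.34 on the 3 slides and CXCL1 by -1.71, -3.60 and -3.24.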

How the data were processed

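RNA of the 29 cultures was measured on Agilent 1-colour arrays with Feature Extraction 10.7.3.1, per the file headers. The authors deposited intensity values per spot, background-subtracted by that software, and a table of log2 values that their methods describe as quantile normalised. From the deposited intensity values, log2 signals were taken here, spots of a probe averaged and arrays quantile normalised. The deposited log2 table was an alternative. The filter kept 38839 of 58201 probes that were well above background on 2 or more arrays. limma 3.58.1 (R 4.3.3) was fitted once to 10 group means, with two-sided tests and Benjamini-Hochberg adjustment, and the procedure was tested on simulated data. Probes were named through RefSeq accessions. Named list genes are up to 3 per list with the largest called change at 96 h in growth media among those measured on every array. The genes and lists were chosen with earlier results of these data known, so no list is independent evidence. A bound sets the bright group's mean against, on each dim array, the higher of the lowest signal well above background and the probe's own. Replicate numbers did not pair samples. The number of arrays limits the precision. Alternatives were another scaling, normexp background correction, filters, blocks, variance models, the methods' t-test, averaged probes and leaving out each array. Single values of some genes on the lists are not reported here.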

Additional observations from a re-analysis of the deposited data

Results flagged for a closer look

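The siZNF148 effect differed between times or media, by limma's test of the difference itself, in the 12 cases below, each in log2 units. In growth media the effect at 48 h minus that at 24 h was -1.78 for IL6 (adjusted p = 4.86e-05). The effect at 96 h minus that at 24 h was 4.79 for CXCL10 (adjusted p = 3.19e-07) and 6.21 for CCL5 (adjusted p = 8e-05). The effect at 96 h minus that at 48 h was 4.65 for CXCL10 (adjusted p = 3.61e-06), 5.02 for CCL5 (adjusted p = 0.00316), 1.53 for IL6 (adjusted p = 0.00196) and 2.12 for CXCL1 (adjusted p = 0.0171). The effect in differentiation media minus that in growth media was, at 48 h, 3.20 for IL6 (adjusted p = 1.85e-08) and -1.45 for CXCL12 (adjusted p = 1.88e-06). At 96 h it was -2.29 for CXCL10 (adjusted p = 0.00275), -1.90 for CCL2 (adjusted p = 0.0086) and -2.17 for CXCL12 (adjusted p = 5.75e-08). The CXCL10 values were fitted against siControl arrays that were not well above background. Under other settings they were as small as 1.64, 1.48 and -1.05, in the order given here, and stayed called.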

How the results depend on the processing

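Of the 8 genes, normexp background correction called 0 at 24 h, 1 at 48 h in growth media, 3 at 48 h with differentiation media, 3 at 96 h with the same, and 3 for the medium in siControl at 96 h. It gave fewer calls among all probes too, 576, 4023, 4325, 6062, 3755, 2478 and 2592, against 1853, 7791, 8072, 10875, 8009, 5201 and 5053 in the report, in the order of the 5 siZNF148 comparisons and the siControl media comparisons at 48 and 96 h. With no fold threshold 2 were called at 24 h and 4 at 96 h in growth media. The methods' t-test after Benjamini-Hochberg adjustment called 2 for the medium in siControl at 48 h. With probes averaged by gene 0 were called at 24 h and 4 at 96 h in differentiation media. Averaging also turned IL6 to -0.08 at 24 h and 0.48 at 48 h in growth media, CXCL12 to -0.13 and 0.18, IL6 from 48 to 96 h in growth media to -0.89 (siControl) and -0.90 (siZNF148), and CXCL10 from 48 to 96 h in siControl differentiation media to 0.03. Differences of effects turned with it were 0.56 for IL6 and 0.32 for CXCL12 from 24 to 48 h, and for IL6 0.54 from 24 to 96 h and -0.01 from 48 to 96 h. The averages mix probes for different transcripts. Scaling to the 75th percentile turned CXCL8 at 96 h in differentiation media to 0.45.

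Leaving out single arrays gave 0 to 1 calls at 24 h, 1 to 3 at 48 h in growth media and 3 to 6 for the medium in siControl at 96 h. Without single arrays CXCL11 ranged over -1.20 to 3.87 at 96 h in growth media, -0.16 to 4.92 from 48 to 96 h in siControl growth media, and, as differences of effects, -1.23 to 3.85 (24 to 96 h), -3.19 to 1.88 (48 to 96 h) and -1.72 to 3.35 (between media at 96 h). CXCL12 at 48 h in growth media ranged over -0.21 to 0.09, and CXCL1 from 48 to 96 h in siControl differentiation media over -0.24 to 1.01. The difference of effects between media at 48 h ranged over -0.82 to 0.42 for CCL2 and -0.37 to 0.69 for CXCL8. Over the 7 comparisons of siZNF148 and of the medium in siControl, 678 of 721 single-gene values under other settings kept their direction and their side of the threshold, as did 329 of 360 without an array. Replicate numbers used as a block changed no call on the 8 genes, with 1827, 7781, 8047, 10864, 7988, 5181 and 5048 probes called. Same-numbered arrays deviated together with correlations of only -0.16 to 0.122. The stricter filter left CXCL8 out. The cause of the changes under normexp and the other scaling was not tested. Signal over background limits what can be said of CXCL8, CXCL11 and, at 24 and 48 h, CXCL10.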
